A study of Mus musculus with 12 samples.

Results

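A set of 38 genes of tight junctions, desmosomes and epithelial identity was described in primary tumours grown from 4 mouse mammary carcinoma lines. The genes were chosen by symbol, and each was read from the probesets of an Affymetrix mouse exon array that are annotated to its symbol alone. Of the 38 genes, 35 had at least 3 such probesets, out of 15025 genes that met this minimum, and those 35 genes together had 444 probesets. Cldn4 had 2 probesets and is given separately, and Dsp and Cgn, with 0 probesets, were not analysed here. The data are 12 arrays, 3 for each of the lines 67NR, 168FARN, 4T07 and 4T1. The hosts were BALB/c females 3 months old, and a mammary fat pad received the cells in 8 mice for 67NR, 11 for 168FARN, 15 for 4T07 and 13 for 4T1. Tumours were removed once they measured 1 to 2 cm on average, and total RNA of each sample was hybridised to 1 array. No treatment was given to any group, and all tumours grew in hosts of the same strain, sex and age. The lines derive from 1 mouse mammary tumour and are known for how far they spread: 67NR forms primary tumours alone, 168FARN reaches lymph nodes, 4T07 reaches the lung without forming visible nodules there, and 4T1 forms metastases. Each behaviour is represented by 1 line, so line and behaviour cannot be told apart. The labels do not say that the 3 samples of a line came from separate mice, so the p-values weigh differences against a spread between samples that may be technical.

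Epithelial cells are joined to one another by 2 kinds of structure treated here. Tight junctions seal the space between neighbouring cells through claudins, occludin and related membrane proteins that are tied to the cytoskeleton by scaffold proteins such as ZO-1. Desmosomes couple the keratin filaments of neighbouring cells through cadherins (desmogleins and desmocollins) and the plaque proteins plakoglobin, plakophilins and desmoplakin. Grainyhead-like and ETS family transcription factors are known to maintain the genes of both in epithelia, and repressors of the Zeb, Snail and Twist families are known to silence many of them.

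Levels are log2 values, differences between lines are differences of log2 means, and a gene's level is the median over its probesets. The median of all probesets ranged from 7.21 to 7.57 over the arrays. Levels below 5.08, the 95th percentile of 335 olfactory receptor genes, are called background here, because these genes are not known to be used in such tumours. Where none of the 3 arrays of a line was above 5.08, the fold against that line is a lower bound, taken against 5.08 and written as "at least", while the log2 difference and its test use the levels as measured. Probe brightness differs between genes, so levels were compared between tumours and not between genes. On the third 4T07 array the mean level of the 35 genes was 7.33, against 6.63 and 6.61 on the other 4T07 arrays, and 21 of the 35 genes had their highest 4T07 value there (60%, against 45.4% of all genes, and against 24.1% of all genes once each array is centred on its median, when 21 of the 35 are again highest there). The median SD of the 35 genes was 0.61 within 4T07 and between 0.21 and 0.24 within the other lines. Differences of 4T07 from 67NR or 168FARN printed here are therefore given without this array too where the call changes or the value moves by over 1.5 times. The mean level of 11 skeletal muscle markers was 8.10 and 9.04 on 168FARN arrays 2 and 3, 5.48 on the first, and between 5.36 and 6.31 on the arrays of the other lines.

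The junction and epithelial genes were, as a group, higher in 4T07 and 4T1 tumours than in 67NR and 168FARN tumours. Their mean level was 5.79 ± 0.06 in 67NR, 5.93 ± 0.03 in 168FARN, 6.86 ± 0.41 in 4T07 and 7.10 ± 0.06 in 4T1 (SD, n = 3 arrays each). In 4T1 against 67NR, 22 of 35 genes differed at an adjusted p under 0.05, where 22.3% of all 15025 genes did, and 21 were higher and 1 lower (9.38% and 13.0% of all genes). In 4T07 against 67NR, 21 differed, where 23.7% of all genes did, and 20 were higher and 1 lower (11.0% and 12.7% of all genes). Cldn8, among those 20, was in the background range on every array. In 4T1 against 168FARN, 26 differed, where 31.2% of all genes did, and 21 were higher and 5 lower (11.9% and 19.3% of all genes). In 4T07 against 168FARN, 24 differed, where 28.3% of all genes did, and 20 were higher and 4 lower (11.4% and 16.8% of all genes). Leaving out the 168FARN arrays 2 and 3, those rich in muscle markers, leaves a lone 168FARN array, assumed to vary like the other lines. Doing so weakens the test for every gene, and calls were lost in both lines. Among the calls then lost in 4T07 were those of Cldn3, Ocln, Marveld2, Lsr, Ap1m2 and Rab25, with log2 differences from 0.93 to 2.04. Those lost in 4T1 were Cldn3 at 1.95, Marveld3 at 1.83, Rab25 at 1.75, Dsc2 at 1.58, Elf3 at 0.83, Cldn6 at -0.92 and Cldn1 at -0.60. The median log2 difference from 67NR was 1.62 in 4T1 and 1.04 in 4T07, where the median over all genes was -0.04 in both. These comparisons share the 67NR or the 168FARN arrays and are not independent of one another. All tests were limma's moderated tests with Benjamini-Hochberg adjustment over all genes.

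Over the 4 lines together, 28 of the 35 genes differed in the moderated F-test, where 42.0% of all genes did. For 17 genes, each of the 6 arrays of 4T07 and 4T1 lay above each of the 6 arrays of 67NR and 168FARN, a separation met by 5.33% of all genes. They were Epcam, Dsg2, Jup, Pkp2, Pkp3, Ppl, Perp, Cldn3, Cldn7, Ocln, Marveld2, F11r, Pard6b, Lsr, Cxadr, Ap1m2 and Rab25. For Ocln and Marveld2 some 4T07 arrays were themselves in the background range, so their separation lies partly within it. The opposite separation was met by Cldn9 and by 7.29% of all genes. The arrays measure whole tumours, in which fewer cells of a type and less RNA per cell cannot be told apart.

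Markers of epithelium and of other cell types also differed between the lines. Among 9 measured markers of simple epithelium (Cdh1, keratins and others, none of them among the 35 genes), 9 were higher in 4T07 and 9 in 4T1 than in 67NR, and their mean level ranged from 5.91 to 6.52 in 67NR, from 6.96 to 7.0 in 168FARN, from 8.71 to 9.98 in 4T07 and from 9.45 to 9.69 in 4T1. Neutrophil markers were higher than in 67NR for 10 of 11 genes in 4T07 and 6 of 11 in 4T1, and their mean level ranged from 5.35 to 6.19 in 67NR, from 5.67 to 6.45 in 168FARN, from 7.75 to 8.13 in 4T07 and from 7.03 to 7.23 in 4T1. Of 12 keratinocyte and basal markers, 1 was higher in 4T07 and 2 in 4T1, and of 8 mammary secretory and luminal markers, 4 were higher in 4T07 and 2 were higher and 1 lower in 4T1. The mean level of the secretory markers ranged from 5.06 to 5.31 in 67NR, from 4.70 to 5.15 in 168FARN, from 5.83 to 7.33 in 4T07 and from 5.04 to 5.97 in 4T1. That of the keratinocyte markers ranged from 4.79 to 5.34 in 67NR, from 4.94 to 5.28 in 168FARN, from 5.29 to 6.08 in 4T07 and from 5.31 to 5.71 in 4T1. The mean level of 12 mesenchymal markers (Vim, Cdh2, Fn1, Zeb1 and others, some of them also among the repressors described further on) ranged from 9.95 to 10.02 in 67NR, from 9.71 to 9.85 in 168FARN, from 9.12 to 9.34 in 4T07 and from 9.21 to 9.36 in 4T1, so that it separated the same pairs of lines in the opposite direction. Of the 12, 5 were lower and 2 higher in 4T07 than in 67NR, and 4 were lower and 1 higher in 4T1. Against 168FARN, 4 were lower and 1 higher in 4T07, and 5 were lower and 2 higher in 4T1. The median log2 differences from 168FARN were 0.02 and -0.01, so the lower mean came without a clearly lower median. The mean level of 6 B cell markers ranged from 5.45 to 5.65 in 67NR, from 5.47 to 6.55 in 168FARN, from 6.66 to 8.26 in 4T07 and from 5.04 to 7.51 in 4T1, with 1 of the 6 called higher in 4T07 than in 67NR and 0 in 4T1. The part of these cells in the junction gene differences was not tested.

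**Figure D1:**
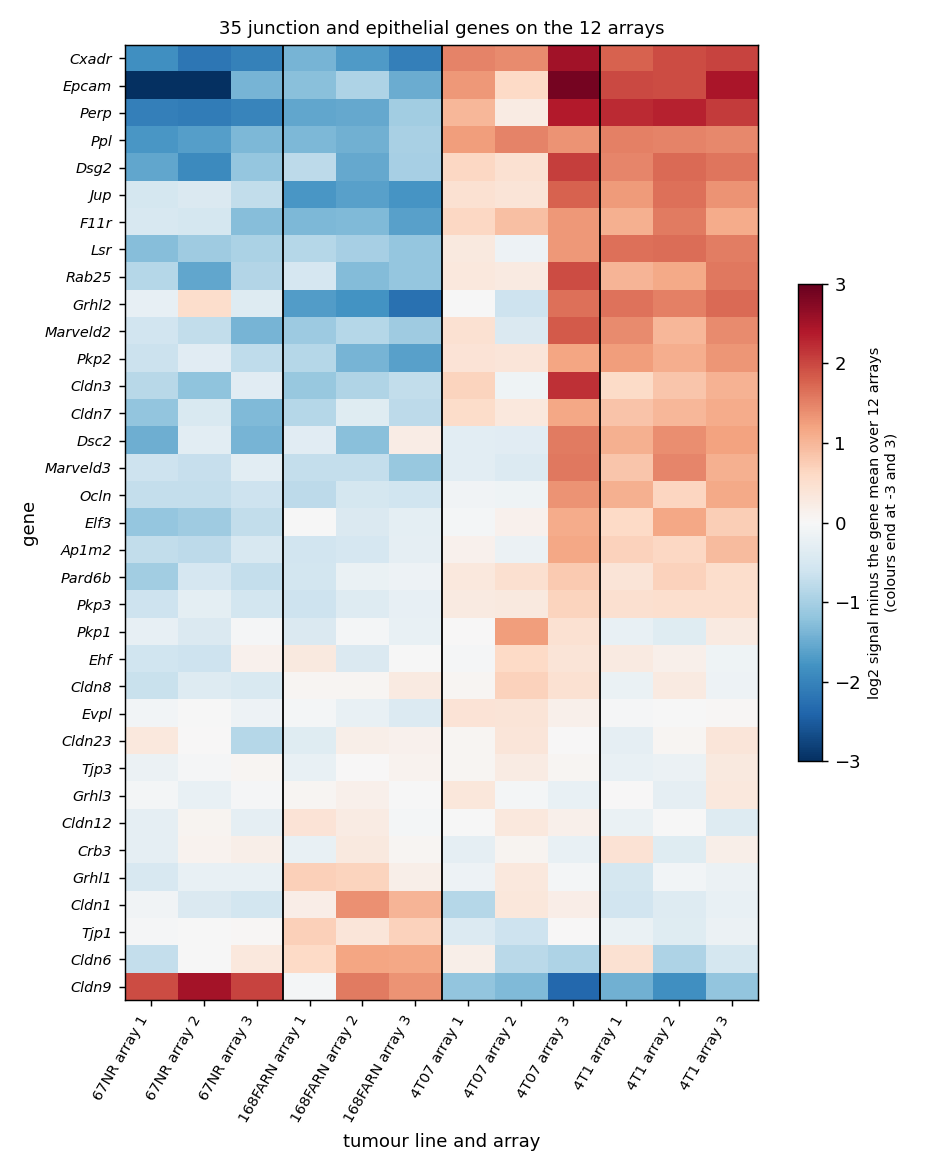
Each row is 1 of the 35 genes and each column 1 of the 12 arrays, grouped by line, and colour gives the array's log2 level minus the gene's mean over the 12 arrays, with colours ending at -3 and 3. Most rows are above their mean in 4T07 and 4T1 and below it in 67NR and 168FARN, Cldn9 runs the other way, and the third 4T07 array has the highest value of its line in 21 rows.

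Epcam encodes a homophilic adhesion molecule of epithelial cells that stabilises claudins. Its level was 5.24, 5.13 and 6.83 in 67NR, 6.99, 7.31 and 6.73 in 168FARN, 9.52, 8.83 and 11.11 in 4T07 and 10.21, 10.19 and 10.68 in 4T1. The 4T07 and 4T1 arrays did not overlap those of the other lines, and the third 67NR array lay near those of 168FARN. Epcam had the widest measured range of line means among the 35 genes, but those next to it, Perp and Cxadr, have their lowest line mean in the background range, so their order is not established. It had a log2 difference from 67NR of 4.63 (SE 0.51, 24.7-fold higher, adjusted p = 2.27e-05) in 4T1 and of 4.09 (SE 0.51, 17.0-fold higher, adjusted p = 6.69e-05) in 4T07. The 4T07 difference was 3.44 (SE 0.43, adjusted p = 0.000161) without the third 4T07 array. Each of its 9 probesets was at least 1 log2 unit higher in 4T07 than in 67NR. In 168FARN the difference from 67NR was 1.28 (adjusted p = 0.0894).

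Of the 2 desmosomal cadherins measured, Dsg2 (desmoglein 2) was at 4.15, 3.81 and 4.57 in 67NR, 4.94, 4.19 and 4.73 in 168FARN, 6.35, 6.17 and 7.80 in 4T07 and 7.18, 7.42 and 7.33 in 4T1. All 67NR and 168FARN values were in the background range, and all 4T07 and 4T1 values were above it. Its difference from 67NR was 3.13 (SE 0.36, at least 4.70-fold higher, adjusted p = 2.95e-05) in 4T1 and 2.60 (SE 0.36, at least 3.24-fold higher, adjusted p = 0.000145) in 4T07. Dsc2 (desmocollin 2) was at 4.65, 5.80 and 4.72 in 67NR, 5.78, 4.86 and 6.35 in 168FARN, 5.80, 5.78 and 7.68 in 4T07 and 7.19, 7.53 and 7.34 in 4T1. The 4T1 arrays lay above those of 67NR and 168FARN, while the first and second 4T07 arrays overlapped both lines. Dsc2 was higher in 4T1 than in 67NR by 2.29 (SE 0.49, 4.90-fold higher, adjusted p = 0.00395), and in 4T07 the difference of 1.36 (adjusted p = 0.0603) did not pass the test and was 0.73 (SE 0.40, adjusted p = 0.229) without the third 4T07 array. In 67NR 1 of the 3 Dsc2 arrays was above background.

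Perp, a membrane protein needed for desmosome assembly in stratified epithelia, was at 4.70, 4.66 and 4.76 in 67NR, 5.20, 5.21 and 5.69 in 168FARN, 7.74, 7.0 and 9.12 in 4T07 and 8.99, 9.05 and 8.85 in 4T1. The 67NR arrays were all in the background range, those of 168FARN just above it, and 4T07 was the line with the widest spread, at 7.96 ± 1.07 (SD, n = 3). Perp was higher than in 67NR by 4.26 (SE 0.38, at least 14.8-fold higher, adjusted p = 3.10e-06) in 4T1 and by 3.25 (SE 0.38, at least 7.35-fold higher, adjusted p = 3.42e-05) in 4T07. It did not pass the test in 168FARN against 67NR, at 0.66 (adjusted p = 0.233).

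Among the 6 plaque genes measured, Jup, Pkp2, Pkp3 and Ppl were higher in 4T07 and in 4T1 than in each of the other lines. Ppl encodes periplakin, a plakin that links desmosomes and the cornified envelope to keratin filaments, and was at 5.44, 5.52 and 5.83 in 67NR, 5.83, 5.74 and 6.22 in 168FARN, 8.43, 8.67 and 8.53 in 4T07 and 8.68, 8.67 and 8.61 in 4T1. The 6 arrays of 4T07 and 4T1 lay within 8.43 to 8.68, and the third 4T07 array did not stand apart. Its difference was 3.06 (SE 0.16, 8.32-fold higher, adjusted p = 4.10e-08) in 4T1 and 2.94 (SE 0.16, 7.70-fold higher, adjusted p = 5.68e-08) in 4T07, and 25 of its 25 probesets were higher in 4T07. Jup encodes plakoglobin, which binds both desmosomal and classical cadherins, and was at 8.06, 8.15 and 7.86 in 67NR, 6.83, 6.97 and 6.82 in 168FARN, 9.04, 8.98 and 10.35 in 4T07 and 9.86, 10.25 and 9.94 in 4T1. The lines fell in the order 168FARN, 67NR, then 4T07 and 4T1, and 168FARN did not overlap 67NR. Jup was higher by 1.99 (SE 0.29, 3.97-fold higher, adjusted p = 0.000216) in 4T1 and by 1.43 (SE 0.29, 2.70-fold higher, adjusted p = 0.00251) in 4T07, and it was lower in 168FARN, at -1.15 (SE 0.29, 2.22-fold lower, adjusted p = 0.0103), a difference of -1.19 (adjusted p = 0.108) without 168FARN arrays 2 and 3.

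Pkp2, plakophilin 2 of simple epithelia and heart, was at 5.85, 6.15 and 5.75 in 67NR, 5.64, 5.12 and 4.87 in 168FARN, 6.92, 6.86 and 7.70 in 4T07 and 7.76, 7.60 and 7.82 in 4T1. The order of its line means was that of Jup. Pkp2 was higher than in 67NR by 1.81 (SE 0.24, 3.50-fold higher, adjusted p = 0.000111) in 4T1 and by 1.24 (SE 0.24, 2.36-fold higher, adjusted p = 0.00197) in 4T07. Pkp3, the plakophilin found most widely in epithelial desmosomes, had line means of 7.79 ± 0.18 in 67NR, 7.85 ± 0.19 in 168FARN, 8.68 ± 0.22 in 4T07 and 8.77 ± 0.02 in 4T1, and its differences from 67NR were 0.98 (adjusted p = 0.000567) and 0.89 (adjusted p = 0.00110) in 4T1 and 4T07, both below 2-fold. Pkp1, the plakophilin of stratified epithelia, was called in 4T07 against 67NR at 0.81 (adjusted p = 0.0446) and in 4T07 against 168FARN at 0.82 (adjusted p = 0.0373), but not among the 4 lines, and both calls were lost without the third 4T07 array, at 0.86 (SE 0.31, adjusted p = 0.0696) and 0.87 (SE 0.31, adjusted p = 0.0581), and without the second, at 0.47 (adjusted p = 0.171) and 0.48 (adjusted p = 0.147). In all, 13 alternatives ended the first Pkp1 call and 7 the second. Evpl, which encodes the cornified envelope protein envoplakin, was higher in 4T07 than in 168FARN by 0.54 (adjusted p = 0.0101), or 0.36 (adjusted p = 0.255) without the muscle-rich 168FARN arrays, with line means between 5.79 and 6.33. Its difference between 4T07 and 67NR, 0.39 (adjusted p = 0.0587), passed the test without the third 4T07 array, at 0.47 (SE 0.14, adjusted p = 0.0365).

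**Figure D2:**
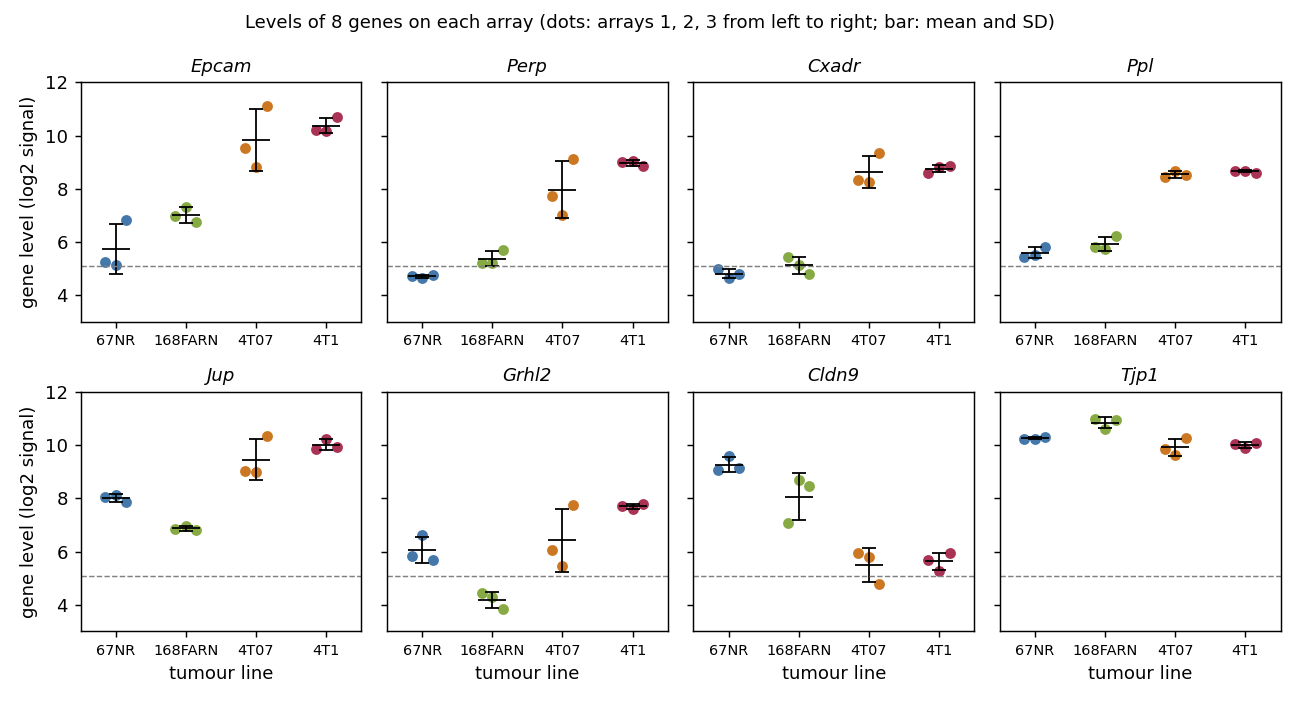
Log2 level on each array (dots, arrays 1 to 3 from left to right) with the line mean and SD (bars) for Epcam, Perp, Cxadr, Ppl, Jup, Grhl2, Cldn9 and Tjp1, with the background level of 5.08 as a dashed grey line. Epcam, Perp, Cxadr, Ppl and Jup sit higher in 4T07 and 4T1, Cldn9 sits lower there, and Tjp1 is highest in 168FARN.

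The 8 claudins with at least 3 probesets did not move one way. Cldn3 and Cldn7 were higher in both 4T07 and 4T1 than in each other line, Cldn9 was lower, Cldn1 and Cldn6 were highest in 168FARN, and Cldn12 and Cldn23 did not pass the F-test. Cldn7, a claudin of many simple epithelia that binds EpCAM, was at 5.71, 6.43 and 5.57 in 67NR, 6.05, 6.53 and 6.11 in 168FARN, 7.44, 7.21 and 8.06 in 4T07 and 7.76, 7.89 and 8.01 in 4T1. The groups did not overlap, with the lowest 4T07 array at 7.21 and the highest 67NR and 168FARN arrays at 6.43 and 6.53. Cldn7 was higher than in 67NR by 1.98 (SE 0.25, 3.95-fold higher, adjusted p = 7.84e-05) in 4T1 and by 1.67 (SE 0.25, 3.17-fold higher, adjusted p = 0.000313) in 4T07, and its single probesets ranged from -0.19 to 4.28 in 4T07 against 67NR.

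Cldn3, a sealing claudin, was at 6.63, 6.24 and 7.11 in 67NR, 6.33, 6.54 and 6.72 in 168FARN, 8.12, 7.34 and 9.65 in 4T07 and 8.03, 8.28 and 8.51 in 4T1. The third 4T07 array held the highest value of all 12. Its difference from 67NR was 1.62 (SE 0.43, 3.06-fold higher, adjusted p = 0.0154) in 4T1 and 1.71 (SE 0.43, 3.26-fold higher, adjusted p = 0.0109) in 4T07, the second falling to 1.07 (SE 0.28, adjusted p = 0.0173) without that array. The 4T1 difference no longer passed the test without the second 67NR array, at 1.41 (adjusted p = 0.0658), or the third 4T1 array, at 1.50 (adjusted p = 0.0580). Cldn4, a claudin often found with Cldn3, had 2 probesets and was at 6.25, 6.55 and 6.85 in 67NR, 7.01, 7.19 and 7.20 in 168FARN, 10.81, 9.44 and 11.99 in 4T07 and 10.96, 11.08 and 11.63 in 4T1. It did not overlap between the 2 pairs of lines either. In a fit of 16185 genes with 1 or more probesets, it was 25.5-fold higher in 4T1 (log2 difference 4.67, SE 0.46, adjusted p = 1.21e-05) and 18.3-fold higher in 4T07 (log2 difference 4.20, SE 0.46, adjusted p = 3.06e-05) than in 67NR.

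Cldn9, a claudin best known from the inner ear, was the only one of the 35 genes that was lower in 4T07 and in 4T1 than in each other line. Its level was 9.06, 9.60 and 9.14 in 67NR, 7.06, 8.69 and 8.46 in 168FARN, 5.94, 5.79 and 4.77 in 4T07 and 5.68, 5.27 and 5.94 in 4T1. All 67NR and 168FARN arrays lay above all 4T07 and 4T1 arrays, and the third 4T07 array, the highest for many of the other genes, was the lowest of the 12 for Cldn9. The difference from 67NR was -3.77 (SE 0.39, 13.7-fold lower, adjusted p = 1.44e-05) in 4T07 and -3.64 (SE 0.39, 12.4-fold lower, adjusted p = 1.85e-05) in 4T1. Each of its 5 probesets was at least 1 log2 unit lower in 4T07 than in 67NR.

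Cldn1, which seals the epidermal barrier, was at 5.39, 5.07 and 4.96 in 67NR, 5.71, 6.87 and 6.52 in 168FARN, 4.65, 5.83 and 5.70 in 4T07 and 4.92, 5.13 and 5.29 in 4T1. It was higher in 168FARN than in 67NR by 1.23 (SE 0.32, 2.34-fold higher, adjusted p = 0.0126), and lower in 4T1 than in 168FARN, at -1.25 (SE 0.32, 2.38-fold lower, adjusted p = 0.00877). Arrays 2 and 3 of 168FARN, those with high muscle markers, held its highest values. Without both arrays the differences were 0.57 (adjusted p = 0.403) and -0.60 (adjusted p = 0.353), and without the second alone the difference from 67NR was 0.97 (adjusted p = 0.0615). Cldn6, a claudin of embryonic epithelia, was at 4.22, 4.93 and 5.24 in 67NR, 5.52, 6.12 and 6.10 in 168FARN, 5.12, 4.13 and 4.01 in 4T07 and 5.39, 4.02 and 4.40 in 4T1. Its 168FARN arrays were the only group wholly above background, and the difference from 67NR of 1.12 (SE 0.38, 2.17-fold higher, adjusted p = 0.0463) was lost under 11 of 21 alternatives, with adjusted p up to 0.466, among them leaving out the first 67NR array, at 0.83 (adjusted p = 0.176), or the second 168FARN array, at 1.01 (adjusted p = 0.133). Cldn8 had its highest line mean, 4.69 ± 0.32 in 4T07, in the background range. Cldn12 had line means between 8.00 and 8.40, and Cldn23 between 5.21 and 5.53.

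The 3 MARVEL-domain proteins of tight junctions, Ocln (occludin), Marveld2 (tricellulin, found where 3 cells meet) and Marveld3, were lowest in 67NR and 168FARN, where their line means lay in the background range. Ocln was at 4.34, 4.34 and 4.44 in 67NR, 4.28, 4.54 and 4.48 in 168FARN, 4.96, 4.94 and 6.42 in 4T07 and 6.14, 5.72 and 6.20 in 4T1. The first and second 4T07 arrays were just below background and the third was the highest of all arrays. Its difference from 67NR was 1.65 (SE 0.31, at least 1.92-fold higher, adjusted p = 0.00175) in 4T1 and 1.07 (SE 0.31, at least 1.29-fold higher, adjusted p = 0.0239) in 4T07, and 0.58 (SE 0.17, adjusted p = 0.0284) in 4T07 without the third array. The 4T07 call on Ocln was lost when 67NR array 1, 2 or 3 was left out, at adjusted p = 0.0618, 0.0662 and 0.0505, with differences of 1.05, 1.05 and 1.10. Marveld2 was at 4.11, 3.96 and 3.30 in 67NR, 3.60, 3.84 and 3.62 in 168FARN, 5.14, 4.25 and 6.53 in 4T07 and 6.10, 5.69 and 6.11 in 4T1. Its difference was 2.18 (SE 0.42, at least 1.85-fold higher, adjusted p = 0.00196) in 4T1 and 1.52 (SE 0.42, at least 1.17-fold higher, adjusted p = 0.0181) in 4T07, and 0.91 (SE 0.29, adjusted p = 0.0404) without the third 4T07 array. The 4T07 call on Marveld2 was lost without the third 67NR array, at 1.27 (adjusted p = 0.0735). The 4T07 means of Ocln and Marveld2 exceed the background level only through the third 4T07 array, so their lower bounds in 4T07 rest on it. Marveld3 was at 4.61, 4.52 and 4.90 in 67NR, 4.51, 4.50 and 4.09 in 168FARN, 4.89, 4.81 and 6.80 in 4T07 and 6.05, 6.68 and 6.29 in 4T1. It was higher in 4T1 than in 67NR by 1.66 (SE 0.40, at least 2.40-fold higher, adjusted p = 0.00943), while in 4T07 the difference of 0.82 (adjusted p = 0.174) did not pass the test and was 0.17 (SE 0.21, adjusted p = 0.634) without the third 4T07 array, the only one of the 3 above background.

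The immunoglobulin-like and tricellular junction receptors F11r, Cxadr and Lsr were higher in 4T07 and 4T1 than in each of the other lines. Cxadr encodes CAR, the junction protein that coxsackieviruses and adenoviruses use as a receptor, and was at 4.99, 4.65 and 4.79 in 67NR, 5.44, 5.14 and 4.78 in 168FARN, 8.32, 8.25 and 9.34 in 4T07 and 8.60, 8.80 and 8.86 in 4T1. The 67NR and 168FARN arrays lay around background, the highest at 5.44, and the lowest of the 4T07 and 4T1 arrays was at 8.25. Its difference from 67NR was 3.94 (SE 0.26, at least 12.8-fold higher, adjusted p = 2.62e-07) in 4T1 and 3.82 (SE 0.26, at least 11.8-fold higher, adjusted p = 3.95e-07) in 4T07. F11r encodes JAM-A, an adhesion molecule of tight junctions also present on leukocytes and platelets, and was at 8.11, 8.05 and 7.31 in 67NR, 7.23, 7.25 and 6.95 in 168FARN, 9.19, 9.48 and 9.88 in 4T07 and 9.66, 10.15 and 9.70 in 4T1. It was higher by 2.01 (SE 0.24, 4.03-fold higher, adjusted p = 4.00e-05) in 4T1 and by 1.70 (SE 0.24, 3.24-fold higher, adjusted p = 0.000169) in 4T07, with 13 of 13 probesets higher in 4T07.

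Lsr encodes angulin-1, which recruits tricellulin to tricellular contacts, and was at 6.24, 6.45 and 6.58 in 67NR, 6.66, 6.52 and 6.36 in 168FARN, 7.81, 7.36 and 8.83 in 4T07 and 9.18, 9.19 and 9.06 in 4T1. All 4T1 arrays lay above all 4T07 arrays, and all 4T07 arrays above those of 67NR and 168FARN. The difference from 67NR was 2.72 (SE 0.28, 6.58-fold higher, adjusted p = 1.21e-05) in 4T1 and 1.57 (SE 0.28, 2.98-fold higher, adjusted p = 0.00103) in 4T07. Of the polarity genes, Pard6b, a subunit of the apical Par complex, was at 5.69, 6.23 and 6.01 in 67NR, 6.17, 6.53 and 6.57 in 168FARN, 7.05, 7.20 and 7.50 in 4T07 and 7.10, 7.41 and 7.24 in 4T1. Its difference from 67NR was 1.28 (SE 0.18, 2.42-fold higher, adjusted p = 0.000206) in 4T07 and 1.28 (SE 0.18, 2.42-fold higher, adjusted p = 0.000212) in 4T1. Crb3, an apical membrane protein, had line means between 5.44 and 5.65 and did not pass the F-test.

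Neither of the 2 scaffold genes was called higher in 4T07 or 4T1. Tjp1, which encodes ZO-1, had line means of 10.26 ± 0.04 in 67NR, 10.85 ± 0.20 in 168FARN, 9.92 ± 0.32 in 4T07 and 10.01 ± 0.10 in 4T1. It was well above background in all 4 lines and higher in 168FARN than in 67NR by 0.59 (SE 0.17, 1.51-fold higher, adjusted p = 0.0220). That call was lost without 67NR array 1 or 2 or 168FARN array 1 or 3, at adjusted p = 0.0661, 0.0625, 0.0697 and 0.0706, with differences from 0.53 to 0.59. Against 168FARN it was lower, at -0.93 (SE 0.17, 1.91-fold lower, adjusted p = 0.00120) in 4T07 and -0.84 (SE 0.17, 1.79-fold lower, adjusted p = 0.00207) in 4T1. Against 67NR the difference of -0.34 (adjusted p = 0.184) in 4T07 did not pass the test with all arrays and did without the third 4T07 array, at -0.51 (SE 0.16, adjusted p = 0.0334). Tjp3, which encodes ZO-3, had line means between 5.73 and 5.90 and did not pass the F-test.

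Both genes of epithelial vesicle trafficking were higher in 4T07 and 4T1. Rab25, a small GTPase of apical recycling in epithelial cells, was at 5.30, 4.58 and 5.25 in 67NR, 5.63, 4.84 and 4.97 in 168FARN, 6.45, 6.41 and 8.09 in 4T07 and 7.17, 7.27 and 7.72 in 4T1. The 2 pairs of lines did not overlap, and the third 4T07 array was the highest of all. Its difference from 67NR was 2.34 (SE 0.39, 5.07-fold higher, adjusted p = 0.000671) in 4T1 and 1.94 (SE 0.39, 3.85-fold higher, adjusted p = 0.00247) in 4T07, with 2 of the 3 67NR arrays above background. Ap1m2, the epithelial subunit of the AP-1 clathrin adaptor that sorts proteins to the basolateral membrane, was at 5.32, 5.28 and 5.59 in 67NR, 5.50, 5.56 and 5.79 in 168FARN, 6.19, 5.88 and 7.24 in 4T07 and 6.76, 6.68 and 7.01 in 4T1. It was higher than in 67NR by 1.42 (SE 0.27, 2.68-fold higher, adjusted p = 0.00180) in 4T1 and by 1.04 (SE 0.27, 2.06-fold higher, adjusted p = 0.0130) in 4T07, the latter falling to 0.64 (SE 0.17, adjusted p = 0.0203) without the third 4T07 array. In 4T07 against 168FARN its difference of 0.82 (adjusted p = 0.0366) was lost without the third 4T07 array, at 0.42 (SE 0.17, adjusted p = 0.0951), and without 168FARN array 1, 2 or 3, at adjusted p = 0.0899, 0.0951 and 0.0515, with differences of 0.77, 0.79 and 0.91.

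The 5 epithelial transcription factors did not move one way. Grhl2, a grainyhead-like factor known to activate Cdh1 and claudin genes, was at 5.85, 6.61 and 5.70 in 67NR, 4.43, 4.30 and 3.85 in 168FARN, 6.08, 5.47 and 7.75 in 4T07 and 7.72, 7.60 and 7.79 in 4T1. All 168FARN arrays were in the background range and below all other arrays, and the third 4T07 array was the only 4T07 array among those of 4T1. Grhl2 was lower in 168FARN than in 67NR, at -1.86 (SE 0.44, at least 1.96-fold lower, adjusted p = 0.00718), and higher in 4T1 than in 67NR by 1.65 (SE 0.44, 3.14-fold higher, adjusted p = 0.0154). In 4T07 it was higher than in 168FARN by 2.24 (SE 0.44, at least 2.56-fold higher, adjusted p = 0.00189), and its difference from 67NR was 0.38 (adjusted p = 0.609) with all arrays and -0.28 (SE 0.28, adjusted p = 0.541) without the third one. The difference between 4T1 and 67NR was lost without the first 67NR array, at 1.55 (adjusted p = 0.0528), or the third, at 1.47 (adjusted p = 0.0575). Without the muscle-rich 168FARN arrays the differences from 168FARN in 67NR and 4T07 did not pass the test, at -1.62 (adjusted p = 0.141) for 168FARN minus 67NR and 2.00 (adjusted p = 0.0674) for 4T07 minus 168FARN.

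Elf3, an ETS factor of simple epithelia, was at 4.43, 4.52 and 4.84 in 67NR, 5.58, 5.14 and 5.30 in 168FARN, 5.53, 5.72 and 6.68 in 4T07 and 6.17, 6.73 and 6.33 in 4T1. The 67NR arrays were all in the background range and overlapped no array of another line. Elf3 was higher than in 67NR by 1.81 (SE 0.27, at least 2.52-fold higher, adjusted p = 0.000250) in 4T1 and by 1.38 (SE 0.27, at least 1.87-fold higher, adjusted p = 0.00195) in 4T07, the latter falling to 0.70 (adjusted p = 0.0929) when probesets below the 25th percentile were left out. Grhl1 had line means of 4.49 ± 0.14 in 67NR, 5.32 ± 0.30 in 168FARN, 4.83 ± 0.25 in 4T07 and 4.54 ± 0.23 in 4T1, and was higher in 168FARN than in 67NR by 0.84 (SE 0.19, at least 1.19-fold higher, adjusted p = 0.00597). Ehf had line means between 4.64 and 5.33 and Grhl3 between 5.65 and 5.82, and neither passed the F-test.

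**Figure D3:**
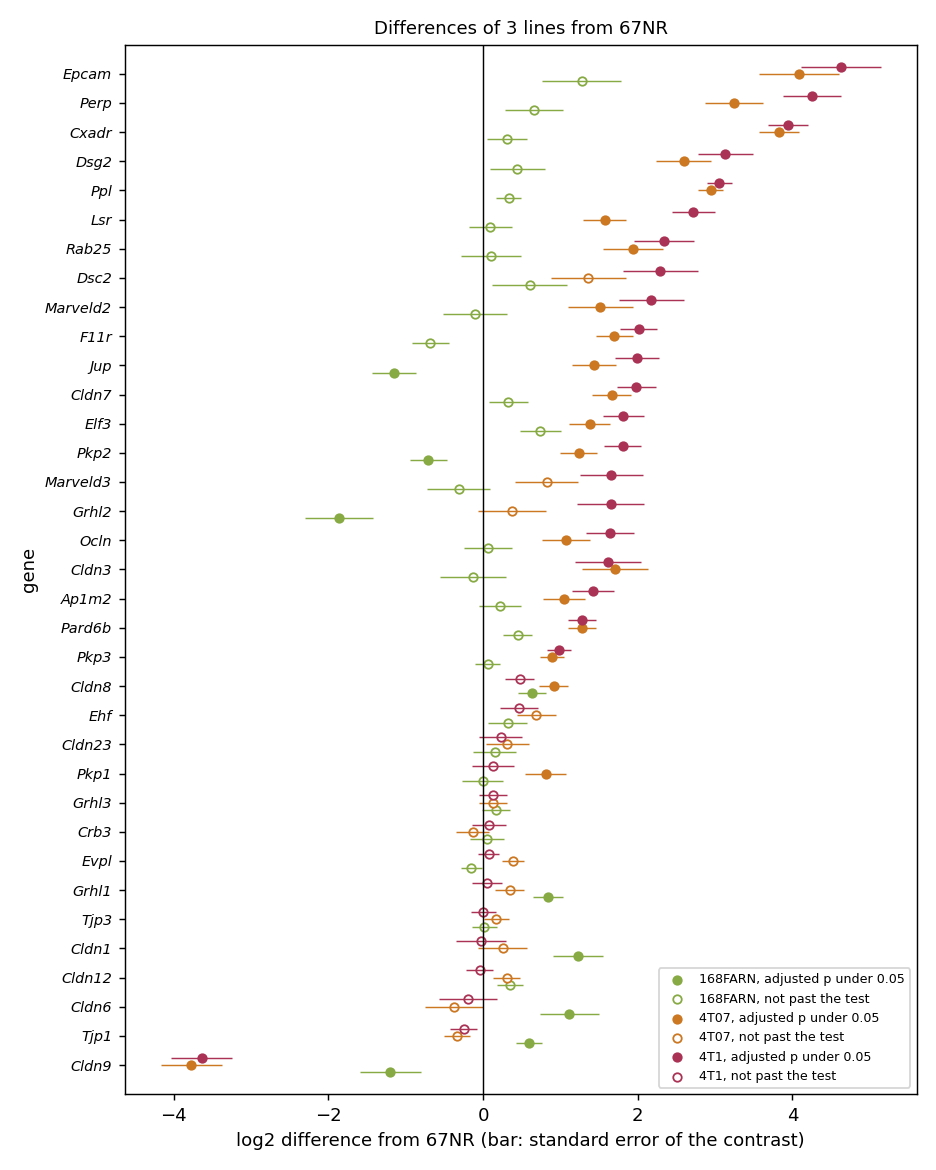
Log2 difference from 67NR of each of the 35 genes in 168FARN, 4T07 and 4T1 tumours, with SE as bars and filled symbols where the adjusted p was under 0.05. Epcam, Perp and Cxadr lie farthest to the right in 4T1 and Cldn9 farthest to the left, while the lowest 168FARN symbol is that of Grhl2 at -1.86.

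Between the 2 lines at the lower level, 168FARN and 67NR, 9 of the 35 genes differed (24.7% of all genes did), 5 of them higher in 168FARN (13.5% of all genes) and 4 lower (11.2%). Cldn1, Cldn6, Cldn8, Tjp1 and Grhl1 were higher, and Jup, Pkp2, Cldn9 and Grhl2 were lower. All Cldn8 arrays of both lines were in the background range, so its call lies wholly within that range. The 67NR arrays of Grhl1 and the 168FARN arrays of Grhl2 were also in it. The median log2 difference was 0.17 over the 35 genes and 0.04 over all genes. When single arrays were left out, the number of genes called ranged from 4 to 13, so that calls were added as well as lost. It was 4 without the first 67NR array and 5 without the second. It was 5 without the third 168FARN array and 6 without the second. Fewer were also called without both muscle-rich 168FARN arrays, which leaves a lone 168FARN array. Shares of all genes called in these fits are not given here, and leaving arrays out can weaken the test for every gene. The Pkp2 call, at -0.71 (adjusted p = 0.0459), was lost under 13 of 23 alternatives, with differences from -0.93 to -0.28 over the 23. The Cldn9 call, at -1.20 (adjusted p = 0.0403), was lost under 8 of 23, among them without the first 168FARN array, at -0.70 (adjusted p = 0.148), and without each 67NR array in turn. The Cldn8 call, at 0.64 (adjusted p = 0.0234), was lost without the first 67NR array, at 0.55 (adjusted p = 0.0928), or the third 168FARN array, at 0.56 (adjusted p = 0.0793). Of 11 muscle markers, 4 were higher in 168FARN than in 67NR, with mean levels from 5.48 to 9.04 in 168FARN and from 5.36 to 6.0 in 67NR. The part of muscle tissue in these differences was not tested beyond leaving the arrays out.

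Between 4T1 and 4T07, limma called 0 of the 35 genes at an adjusted p under 0.05 (2.38% of all genes were called, 0.552% higher and 1.82% lower), and 7 had an unadjusted p under 0.05, against 13.2% of all genes. The mean was higher in 4T1 for 24 of the 35 and for 49.9% of all genes. For 23 of the 35 genes the third 4T07 array lay above every 4T1 array (42.3% of all genes), and for 19 every 4T1 array lay above the first and second 4T07 arrays (19.2% of all genes). The third 4T07 array was singled out because many of the 35 genes are high on it. Leaving it out lowers their 4T07 means, so calls made without it are no test of a difference. Without the third 4T07 array, 9 genes were higher in 4T1, where 1.77% of all genes were. Grhl2 was then higher by 1.93 (SE 0.28, adjusted p = 0.00300), Perp by 1.59 (SE 0.22, adjusted p = 0.00234), Lsr by 1.56 (SE 0.18, adjusted p = 0.000729) and Marveld3 by 1.49 (SE 0.21, adjusted p = 0.00268). The others were Marveld2, Ocln, Dsg2, Jup and Ap1m2, with log2 differences from 0.78 to 1.27. With all arrays the largest of these differences was that of Grhl2, at 1.27 (adjusted p = 0.195), and the one nearest to a call was that of Lsr, at 1.14 (adjusted p = 0.0516). Ppl differed by 0.11 (adjusted p = 0.842) and Cxadr by 0.12 (adjusted p = 0.906), with SEs of 0.16 and 0.26.

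**Figure D4:**
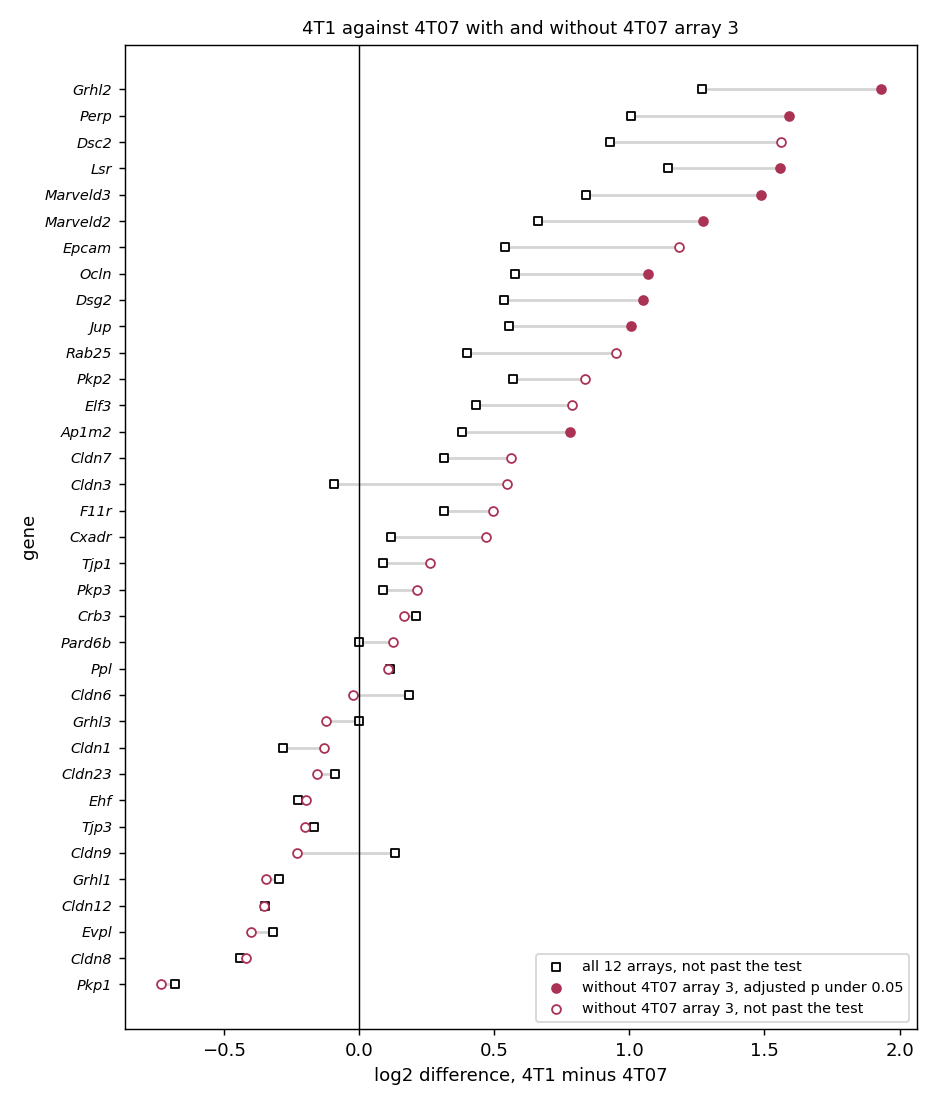
Log2 difference of 4T1 minus 4T07 for the 35 genes with all arrays (squares) and without the third 4T07 array (circles), filled where the adjusted p was under 0.05. No square is filled, and 9 circles are, among them Grhl2 at 1.93 and Perp at 1.59. The third 4T07 array was singled out because many of these genes are high on it.

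Single probesets of the array can depart from the rest of their gene. Of the 35 genes, 8 met the level filter of an exon-level test with limma's diffSplice, on 108 of 110320 probesets, and 6 of the 108 differed from the rest of their gene by at least 1 log2 unit in some pair of lines. In 4T1 against 67NR, 2 of the 108 were called (0.736% of all probesets), in 4T07 against 67NR 2 (0.672%) and in 4T1 against 168FARN 4 (1.26%). The other 3 pairs had 0 calls of the 108, where 0.743% were called in 168FARN against 67NR, 0.761% in 4T07 against 168FARN and 0.149% in 4T1 against 4T07. The test takes 1 spread per gene, so a probeset noisier than its neighbours is called more readily, and a splicing index was run beside it.

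Epcam probeset 4390391 was already at 7.76 ± 0.04 in 67NR (SD, n = 3) and stood at 8.83 ± 0.56 in 4T07 and 9.43 ± 0.19 in 4T1, a smaller difference than that of its gene. Its change relative to the rest of the gene was -3.67 (SE 0.69, adjusted p = 0.000324) in 4T07 and -3.62 (SE 0.69, adjusted p = 0.000405) in 4T1 against 67NR. Epcam and Cldn3 exceeded the level minimum of this test, a mean of 7.39 over all arrays, through 4T07 and 4T1, and in 67NR they were at 5.73 and 6.66 as genes, so these relative changes are set against a low gene level. Cldn3 probeset 5355090 differed more than its gene, at 4.24 ± 0.99 in 67NR, 8.55 ± 1.15 in 4T07 and 8.37 ± 0.14 in 4T1, its 67NR mean being below the background level of 5.08, which was set on genes. Its relative change was 2.60 (SE 0.55, adjusted p = 0.00299) and 2.50 (SE 0.55, adjusted p = 0.00488), and both calls were lost without the first 67NR array, at adjusted p = 0.0921 and 0.138, and the second without the first 4T1 array, at adjusted p = 0.0539. In Tjp1, lower in 4T1 than in 168FARN as a gene, at -0.84, probesets 4574151 and 4943664 did not follow, with relative changes of 1.12 (adjusted p = 0.00293) and 1.01 (adjusted p = 0.0101). Both calls were lost without the third 168FARN array, where the relative changes were 0.99 (adjusted p = 0.0487, under the size of 1 log2 unit) and 0.92 (adjusted p = 0.0906). The call on 4943664 was also lost without the first 168FARN array (adjusted p = 0.0599), the first 4T1 array (adjusted p = 0.0855) or the third 4T1 array (adjusted p = 0.0820), and under quantile normalization, at 0.98. These 4 probesets also passed the splicing index. The calls on F11r probeset 5026180 and Pkp3 probeset 5516179 did not, at adjusted p = 0.0886 and 0.168, and each was lost without the first 168FARN array (adjusted p = 0.102 and 0.194) and without any single 4T1 array. The position of these probesets in their genes was not analysed here.

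Promoter sequences were read for the genes because 17 of them separated the same pairs of lines. RefSeq sequence of build GRCm38.p6 for the 250 bases before a start was found for 23 of the 38 genes. The E-box CACCTG, or CAGGTG on the other strand, is the textbook binding element of the Zeb and Snail repressors. It stood in the promoter of 14 of these 23 genes (60.9%) and in 19.4% of 27025 genes. Among genes measured on the array it stood in 13 of 20 of them (65%) and in 19.3% of 12017 genes. The promoters of the junction genes had a median GC content of 60%, against 52.4% over all promoters. Among promoters of 55 to 65% GC, 10 of 17 (58.8%) held the E-box, against 19.2% of 5112. It was present in 8 of the 11 genes with a promoter entry that separated the pairs of lines and in 5 of the other 9 measured ones. Those 5 were Cldn6, Crb3, Elf3, Grhl3 and Tjp3, of which Crb3, Grhl3 and Tjp3 did not pass the F-test. The separating genes without it were Cldn3, Jup and Marveld2. The grainyhead-type motif AACNNGTT, searched on both strands and overlapping no E-box in these genes, stood in 2 of 23 (8.7%) and in 4.11% of all genes. A match is a stretch of letters and does not show binding.

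Promoters are shown for Epcam (chr17:87635729-87635978, plus strand), Cldn4 (chr5:134946935-134947184, minus strand), Lsr (chr7:30973470-30973719, minus strand) and Rab25 (chr3:88548280-88548529, minus strand) as genes with large differences that hold the E-box, and for Cldn3 (chr5:134985964-134986213, plus strand) as one without it. Each reads 5′ to 3′ on the gene's strand and ends at the base before the start, and capitals mark the E-boxes and, in Rab25 alone, the first capital run marks the grainyhead-type motif.
Epcam: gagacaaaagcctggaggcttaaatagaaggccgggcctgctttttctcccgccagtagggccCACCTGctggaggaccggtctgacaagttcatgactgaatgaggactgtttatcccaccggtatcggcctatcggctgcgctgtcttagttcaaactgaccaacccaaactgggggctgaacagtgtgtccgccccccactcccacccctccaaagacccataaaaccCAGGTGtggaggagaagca
Cldn4: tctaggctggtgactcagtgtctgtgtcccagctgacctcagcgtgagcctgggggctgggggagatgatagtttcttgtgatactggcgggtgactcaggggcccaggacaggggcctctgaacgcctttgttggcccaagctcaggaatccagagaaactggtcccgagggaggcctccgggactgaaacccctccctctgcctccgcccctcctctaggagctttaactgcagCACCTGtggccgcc
Lsr: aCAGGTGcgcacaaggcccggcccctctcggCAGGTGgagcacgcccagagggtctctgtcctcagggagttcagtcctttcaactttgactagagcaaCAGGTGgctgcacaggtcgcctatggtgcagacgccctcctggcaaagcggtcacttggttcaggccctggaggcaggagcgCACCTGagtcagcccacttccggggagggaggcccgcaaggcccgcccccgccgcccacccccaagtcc
Rab25: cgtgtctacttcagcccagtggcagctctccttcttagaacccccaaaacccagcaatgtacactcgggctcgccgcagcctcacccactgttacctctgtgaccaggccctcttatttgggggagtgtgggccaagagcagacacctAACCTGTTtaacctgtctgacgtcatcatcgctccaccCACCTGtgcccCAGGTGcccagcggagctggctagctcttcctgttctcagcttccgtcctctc
Cldn3: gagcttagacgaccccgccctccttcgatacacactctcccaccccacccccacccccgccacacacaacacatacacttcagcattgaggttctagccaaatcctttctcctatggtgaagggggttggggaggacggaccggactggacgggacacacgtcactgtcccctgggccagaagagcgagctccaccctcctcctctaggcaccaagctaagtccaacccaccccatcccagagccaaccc

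Other genes of the same structures were taken from lists of textbook members. Of 25 other tight junction genes measured, 5 were higher and 5 lower in 4T1 than in 67NR, and 3 were higher and 4 lower in 4T07, with a median log2 difference of -0.06 and -0.14. Cgnl1, which encodes paracingulin, was higher by 2.85 in 4T1 (SE 0.34, adjusted p = 4.81e-05) and by 2.02 in 4T07 (SE 0.34, adjusted p = 0.000792). Patj, a scaffold of the Crumbs polarity complex, was higher by 1.44 in 4T1 (SE 0.17, adjusted p = 4.26e-05) and lower by a log2 difference of -1.25 in 168FARN (SE 0.17, adjusted p = 0.000172). Cldn15, a pore-forming claudin of the intestine, was lower than in 67NR in 168FARN, 4T07 and 4T1, at -1.07, -0.97 and -1.11. Of 10 other genes listed with desmosomes and the cornified envelope, 2 were higher and 2 lower in each of 4T07 and 4T1 against 67NR. The 2 higher were Krt14, a basal keratin, by 2.00 in both, and Ctnnb1, by 0.44 in 4T07 and 0.45 in 4T1. The 2 lower were Pkp4 and Cdsn.

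The list of other epithelial factors shares genes with the simple epithelium markers, among them Cdh1, Spint1, Spint2, St14 and Esrp1. Of 27 measured, 17 were higher and 2 lower in 4T1 than in 67NR, and 14 were higher and 1 lower in 4T07, with medians of 0.66 and 0.71. Spint2, an inhibitor of membrane serine proteases, had the largest difference, 3.84 in 4T1 (SE 0.18, adjusted p = 1.84e-08). Esrp1, an epithelial splicing regulator, was higher by 3.32 in 4T1 (SE 0.50, adjusted p = 0.000302), and Cdh1, which encodes E-cadherin, was higher by 2.43 in 4T07 (SE 0.25, adjusted p = 1.47e-05). In 168FARN against 67NR, 1 of the 27 was higher and 3 were lower, among them the kinase gene Mapk13 at -3.35 (SE 0.17, adjusted p = 3.24e-08). Klf4, a transcription factor of epithelial differentiation, was lower in 4T1 than in 4T07, at -1.43 (SE 0.16, adjusted p = 0.000492).

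Several repressors of epithelial genes were lower in 4T07 and 4T1. Of 11 measured, 5 were lower, 2 higher and 4 not called in 4T07 against 67NR. In 4T1 against 67NR, 3 were lower, 1 higher and 7 not called. The 1 higher was Tcf4, by 0.75 (SE 0.20, adjusted p = 0.0167). Against 168FARN, 5 were lower and 0 higher in each of 4T07 and 4T1, with median log2 differences of -0.66 and 0.01, so the list as a whole was not lower in 4T1 by its median. Prrx1, a mesenchymal homeobox factor, was at 10.82 ± 0.03 in 67NR, 11.67 ± 0.19 in 168FARN, 8.25 ± 0.41 in 4T07 and 8.50 ± 0.18 in 4T1 (SD, n = 3). Snai2 was at 8.13 ± 0.09, 8.10 ± 0.34, 6.29 ± 0.17 and 5.84 ± 0.16 in the same order. Both were lower in each of the latter 2 lines than in each of the former, with log2 differences from -1.82 to -3.42. Zeb1 was lower than in 67NR by a log2 difference of -1.64 in 4T07 (SE 0.17, adjusted p = 1.48e-05) and -1.50 in 4T1 (SE 0.17, adjusted p = 3.05e-05). Twist1 was at 9.40 ± 0.28 in 67NR, 10.39 ± 0.15 in 168FARN, 7.31 ± 0.52 in 4T07 and 8.99 ± 0.30 in 4T1. It was higher in 4T1 than in 4T07 by 1.68 (SE 0.25, adjusted p = 0.00258). In 168FARN against 67NR, 4 repressors were higher and 1 was lower. These genes are also expressed by fibroblasts, and the mean level of 13 fibroblast markers was 9.20 ± 0.22, 10.23 ± 0.21, 9.82 ± 0.29 and 9.86 ± 0.14 in the 4 lines in the same order. The part of fibroblasts in the repressor levels was not tested.

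For correlations across the 12 arrays, each of the 35 genes was first scaled to the same mean and SD. Of the 35, 20 had a Pearson correlation above 0.8 with the mean of the other 34 scaled genes. A correlation below 0 was found for 7, with Cldn9 at -0.94 and Tjp1 at -0.54. These values describe 12 arrays of 4 lines and share the separation of the lines. Among genes that are not members, those whose level followed the mean of the 35 scaled genes most closely were L3hypdh (r = 0.983), Gca (0.980), Cdh1 (0.977), Nipal2 (0.976) and Tbrg1 (0.975) over the same 12 arrays, followed by Maged1, Fgd3, Wdr36, Stard10 and Nabp1. Nipal2 was at 3.88 in 67NR, 4.65 in 168FARN, 7.34 in 4T07 and 7.33 in 4T1, as means of 3 arrays.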

How the data were processed

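The authors deposited log2 values of 228090 probesets on 12 exon arrays, a scale read from their range (0.78 to 14.65). Background correction and normalization are not given in the sources used here, and the values were used as deposited. Platform annotation gave 1 symbol to 207232 probesets, several to 3882 and none to 16976. Of 16207 symbols, 14055 were current, 2111 were updated to the RefSeq name and 41 kept.

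A gene's level was the median of its probesets' log2 values, for 15025 genes with at least 3. Line means were fitted over all 12 arrays with limma 3.58.1 (lmFit, eBayes) in R 4.3.3, p-values were adjusted by Benjamini-Hochberg over all genes, and calls were made at an adjusted p under 0.05. The exon-level test used probesets above the 25th percentile in genes above the median. Scripts were tested on simulated data. Precision is limited by 3 arrays per line.

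Values on every array are given for members that passed the F-test, reached 2-fold in a called pair of lines and exceeded background in some line, 23 in all. From each pathway list, called genes with the largest changes were eligible, up to 4 per comparison. The members, the lists and the alternatives were chosen with earlier results of these data known, so none is independent support. Promoter strand was checked by TATAAA lying 19 to 35 bases before the start in 296 plus-strand and 289 minus-strand promoters, against 51 and 49 in a window of equal width farther upstream.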

Additional observations from a re-analysis of the deposited data

How the results depend on the processing

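Alternatives changed the normalization between arrays, the gene summary, the filters, the variance model, the samples and the pairing. Of 88 called differences of the 23 members given in full, 61 held under every alternative that could be run, up to 23 each, 27 were lost under some and 0 changed sign. Those 23 were chosen by the F-test and a 2-fold difference in the same data, so this count leaves out weaker calls. Outside it, calls on Pkp1, Tjp1, Cldn8, Evpl and Grhl1 were also lost under some alternatives. The members called over the 4 lines numbered 25 to 28 when single arrays were left out (28 with all). The counts were 4 to 13 in 168FARN against 67NR (9), 19 to 22 in 4T07 against 67NR (21), 21 to 23 in 4T1 against 67NR (22), 20 to 25 in 4T07 against 168FARN (24), 24 to 26 in 4T1 against 168FARN (26) and 0 to 9 in 4T1 against 4T07 (0). Of the 88 differences, leaving out 168FARN arrays 2 and 3 ended more than any other alternative did. It leaves a lone 168FARN array, assumed to vary like the other lines. Shares of all genes called under the alternatives are not given here, and leaving arrays out can weaken the test for every gene. In 4T1 against 4T07, 1 member was called under quantile normalization, 1 with arrays centred on their medians, 1 with probesets above the 25th percentile, 1 with genes above background, 1 with an intensity trend and 4 with array weights. The exon-level test called 6 member probesets, 3 to 9 when single arrays were left out, and the splicing index called 11. Same-numbered arrays of different lines had correlated deviations from -0.09 to 0.19 (18 pairs), and differently numbered ones from -0.16 to 0.22 (36 pairs). The labels do not say whether equal numbers share a batch, and these correlations cannot exclude it. With the replicate number as a block the counts were 28 over the 4 lines, 8 in 168FARN against 67NR and 21, 22, 24, 26 and 0 in the other pairs, and 6 probesets at exon level. The causes of these moves were not tested. Other scalings moved the median difference of all genes by under 0.1. A line mean below background limits 14 members, whose differences can be understated: Dsg2, Dsc2, Perp, Cldn6, Cldn8, Ocln, Marveld2, Marveld3, Cxadr, Rab25, Elf3, Ehf, Grhl1 and Grhl2.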
